A study of Mus musculus with 143 samples.

Results

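The regions described here are 9129 H3K27me3 core peaks of mouse oocytes. They were chosen by their presence and width: each is an autosomal peak (chromosomes 1 to 19) under 5 kb in the list of 1 p20 control library, p20 control 1, that overlaps by 1 bp or more a peak in each of the 11 other H3K27me3 lists. They make up 6.10% of the 149773 narrow autosomal peaks of that library and 5.86% of all its 155818 peaks. H3K27me3 was profiled by CUT&Tag, an assay in which a transposase held by an antibody cuts and tags nearby chromatin, on pooled oocytes with 3 libraries in each of 4 groups. Control and Dis3 conditional knockout (Dis3 cKO) oocytes were adult and at the germinal vesicle (GV) stage, that is, fully grown and arrested in prophase with an intact nucleus. Control and dcKO oocytes were of stage p20, taken here as postnatal day 20. The labels abbreviate the last genotype, and in single dcKO oocytes RNA of both Dis3 and Exosc10 was low (values below), so stage and genotype change together between the knockout comparisons. All mutants came from CRISPR/Cas9 mouse lines, and the driver of the conditional deletion, the alleles carried by controls, the age of the adults and the number of oocytes per pool are not given in the sources used here. In pooled oocytes, fewer marked oocytes and less mark per oocyte cannot be told apart.

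H3K27me3 is the trimethylated form of lysine 27 of histone H3 that is written by Polycomb repressive complex 2 and lies over silent developmental genes. In growing oocytes the mark also spreads over broad intergenic and gene-body domains, and some of it is inherited by the embryo, where it silences the maternal copy of a small set of imprinted genes. The nuclear RNA exosome trims and destroys RNA through catalytic subunits that include DIS3 and EXOSC10.

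Promoter windows of 5 core-peak genes are printed because results below turn on them: Gm40237, a noncoding locus under the member with the highest signal, and Hoxa10, Hoxa9, Hoxb4 and Otx2, homeobox genes whose core peaks were lower in both knockout comparisons. Each window runs from 250 bases before to 50 after the gene start (RefSeq, GRCm38.p6, the assembly of mm10), 5′ to 3′ on the gene's strand, with CG dinucleotides in capitals. The positions are chr4:118546889-118547188 (plus strand), chr6:52234890-52235189 (minus), chr6:52227321-52227620 (minus), chr11:96318017-96318316 (plus) and chr14:48662685-48662984 (minus).
Gm40237: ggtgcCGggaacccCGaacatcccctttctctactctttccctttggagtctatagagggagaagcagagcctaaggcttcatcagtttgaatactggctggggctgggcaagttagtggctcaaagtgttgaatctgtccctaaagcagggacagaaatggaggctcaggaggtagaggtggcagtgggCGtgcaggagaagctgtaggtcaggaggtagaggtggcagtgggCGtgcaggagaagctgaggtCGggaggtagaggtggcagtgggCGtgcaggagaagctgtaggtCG
Hoxa10: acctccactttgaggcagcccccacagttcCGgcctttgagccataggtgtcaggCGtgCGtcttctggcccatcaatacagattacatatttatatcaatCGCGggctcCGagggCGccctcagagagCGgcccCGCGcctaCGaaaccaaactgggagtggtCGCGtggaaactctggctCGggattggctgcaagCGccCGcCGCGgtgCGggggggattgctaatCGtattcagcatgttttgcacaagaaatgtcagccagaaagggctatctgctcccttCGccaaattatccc
Hoxa9: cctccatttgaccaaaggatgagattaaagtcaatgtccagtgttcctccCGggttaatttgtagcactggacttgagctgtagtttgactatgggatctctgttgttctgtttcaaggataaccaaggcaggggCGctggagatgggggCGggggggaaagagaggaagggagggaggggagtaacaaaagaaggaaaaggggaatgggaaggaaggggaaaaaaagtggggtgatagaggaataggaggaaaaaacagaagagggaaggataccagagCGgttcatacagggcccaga
Hoxb4: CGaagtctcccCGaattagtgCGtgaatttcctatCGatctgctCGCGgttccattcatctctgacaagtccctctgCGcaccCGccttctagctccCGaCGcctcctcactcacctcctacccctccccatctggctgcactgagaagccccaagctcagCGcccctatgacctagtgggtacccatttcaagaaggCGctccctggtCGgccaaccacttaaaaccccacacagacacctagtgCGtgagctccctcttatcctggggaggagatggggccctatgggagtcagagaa
Otx2: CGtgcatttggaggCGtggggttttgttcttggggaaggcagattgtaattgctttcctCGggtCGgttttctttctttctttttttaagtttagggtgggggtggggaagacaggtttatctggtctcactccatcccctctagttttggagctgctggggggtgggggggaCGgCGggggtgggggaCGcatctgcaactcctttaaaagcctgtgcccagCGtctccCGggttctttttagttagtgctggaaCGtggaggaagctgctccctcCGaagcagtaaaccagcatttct
The windows of Hoxa10 and Hoxb4 hold 21 and 14 CG, that of Otx2 11, that of Gm40237 7 and that of Hoxa9 4.

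The libraries differed in ways that touch every value below. Control lists held 87394 to 202628 peaks and knockout lists 224934 to 299716, although the series' design text states an equal number of reads sampled per library. Adult control 2 stood apart from the other adult controls: it had 202628 peaks against 98190 and 87394, 11.9% of its peaks on chromosome X against 3.21% and 3.76%, and a median maximum signal of 4 against 11 in both others. Its own label gives no reason to leave it out, so results are given with it and, where it matters, without it. In p20 control 1, which defines the rows, the width of each core peak is below the limit by construction and each member is 1 peak. Whether peak number or the spread of reads over more of the genome accounts for any lower signal in knockout lists was not tested.

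Presence over the 12 lists was continuous, without a separate class of shared peaks. Of the narrow autosomal peaks of p20 control 1, 9498 (6.34%) were in that list alone, 15568 (10.4%) were in 5 lists, 9103 (6.08%) in 11 and 9129 (6.10%) in all 12. Presence followed width and height: 0.349% of peaks of 250 to 500 bp were core, 9.44% of those of 1000 to 1500 bp, 49.8% of those of 2000 to 3000 bp and 81.9% of those of 4000 to 5000 bp. By maximum signal the share went from 0.577% at 2 or 3 to 70.7% at 50 or more. Wider peaks overlap other peaks more readily, so this relation is part of the rule and supports nothing. The 10 widest core peaks (4979 to 4998 bp) and the 10 narrowest peaks of every list beyond the limit (5001 to 5027 bp) had the same median maximum signal of 25. The limit therefore fell within a continuous range, with 788 autosomal peaks of 5 kb or more also present in every list. When each list had to cover at least 50% of a peak, 537 of the narrow autosomal peaks were left.

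**Figure D1:**
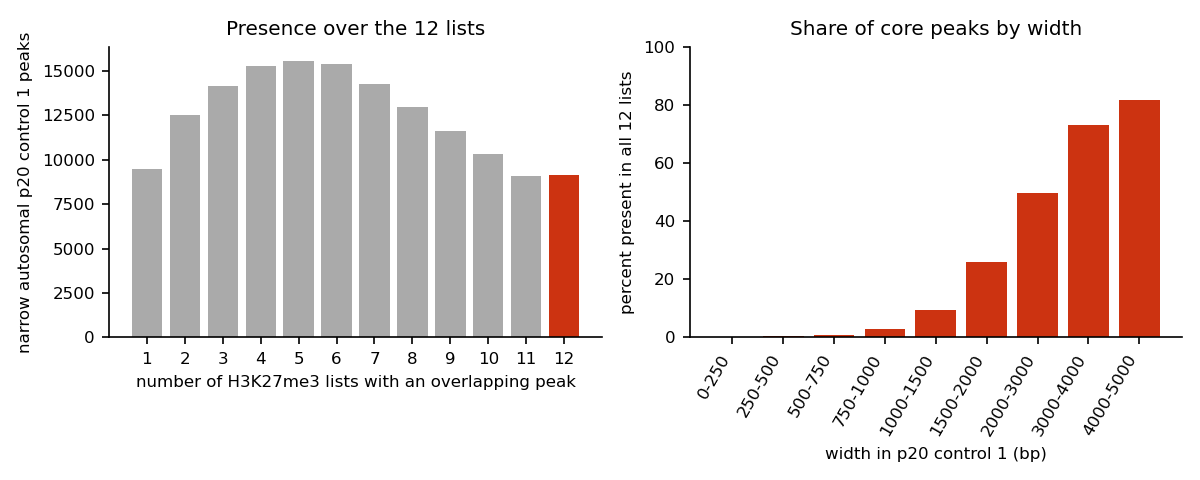
Left, number of narrow autosomal peaks of p20 control 1 (vertical axis) found in 1 to 12 H3K27me3 lists (horizontal axis), with the 9129 core peaks in red. Right, percentage of peaks in each width class (bp) present in all 12 lists, which rises from 0.265% below 250 bp to 81.9% at 4000 to 5000 bp.

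Core peaks lay in gene-rich sequence and close to other peaks, as did the wide peaks of every list. Their median width in p20 control 1 was 1931 bp (interquartile range 1312 to 2752), against 612 bp for narrow peaks missing from 1 or more lists and 6430 bp for the wide peaks of every list. Off chromosome 18, for which the promoter table has no entries, 825 of 8886 core peaks (9.28%) held the start of a gene, 893 genes in all, against 2.01% of the other narrow peaks and 33.0% of the wide peaks. Per Mb of peak sequence, which takes account of width, 47.6 genes had a start in core peaks, 27.9 in the other narrow peaks and 55.6 in the wide peaks. The midpoint lay inside a gene for 70.8% of core peaks, 53.3% of the other narrow peaks and 76.0% of the wide peaks. Another peak of the same list lay within 5 kb of 98.5% of core peaks, 83.6% of the other narrow peaks and 99.5% of the wide peaks. The median gaps were 261, 872 and 221 bp.

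The members clustered along chromosomes. The share of narrow peaks that were core ran from 3.17% on chromosome 13 to 9.24% on chromosome 4. Windows of 1 Mb with 20 or more core peaks numbered 113 and held 34.0% of all members. The densest, with 54 members, was on chromosome 4 from 137000001 to 138000000 and holds Wnt4, which encodes a signal of female gonad development, Alpl and Ece1. Windows with 53 members included chromosome 4 from 46000001 to 47000000, whose 15 protein-coding genes include Foxe1, a thyroid forkhead factor. Others with 53 lay on chromosome 15 from 78000001 to 79000000 and on chromosome 8 from 20000001 to 21000000. The latter holds Defb33, and 27.5% of its narrow peaks were core, against 21.6% in the densest window. Promoters inside core peaks (1032 windows) had a median GC content of 57.7% and a median of 9 CG, against 53.0% and 7 over all 31396 autosomal promoter windows. Searching for the letters CG, which read the same on both strands, 48.4% of core-peak promoters held 10 or more, against 44.0% of all promoters.

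Width and signal of the members are given by group next. For each member and list, width is the summed width of the overlapping peaks and signal is the highest maximum among them, in whole units of read pileup set by the authors' peak caller. In p20 controls 1, 2 and 3 the median maximum signal over the 9129 members was 14, 15 and 15, and in dcKO libraries 8, 8 and 6. In adult controls it was 18, 7 and 18, and in each of the 3 adult Dis3 cKO libraries 9. All dcKO libraries thus lay below all p20 controls, while adult Dis3 cKO lay below adult controls 1 and 3 and above adult control 2.

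Averaged over libraries, median width was greatest in p20 controls, but the rows are peaks of p20 control 1, which may favour this group. The order over members therefore supports nothing. Over whole lists, median peak width was 637, 622 and 624 bp in p20 controls and 634, 564 and 638 bp in adult controls. In knockout lists it was 536 to 592 bp. Over members, median width was 1931, 2562 and 2534 bp in p20 controls (mean of libraries 2342 ± 357 bp, SD, n = 3) and 1612, 1755 and 1330 bp in dcKO (1566 ± 216 bp, n = 3). It was 1535, 1525 and 1388 bp in adult controls (1483 ± 82.1 bp, n = 3) and 2002, 1616 and 1607 bp in adult Dis3 cKO (1742 ± 226 bp, n = 3). The lowest p20 control, which is the library whose widths the rule caps, exceeded the highest dcKO library, and every adult Dis3 cKO library exceeded every adult control.

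The shape of the mark over the members changed between lists as well. Members were covered over a median of 84.8% and 84.4% of their length in p20 controls 2 and 3, 55.3% to 62.4% in adult controls, 61.6% to 72.4% in adult Dis3 cKO and 53.2% to 65.5% in dcKO. Outside p20 control 1, 39.9% to 52.0% of members were split into 2 or more peaks in a list, and the point of highest signal was displaced by a median of 523 to 592 bp. Presence in every list therefore often meant partial overlap.

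**Figure D2:**
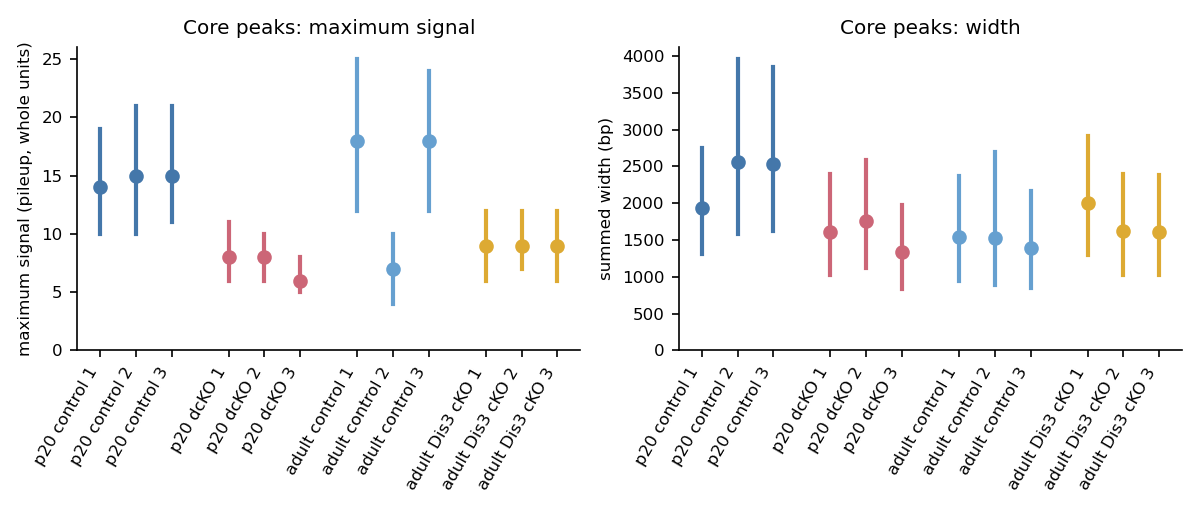
Median (points) and interquartile range (bars) over the 9129 core peaks of the maximum signal (left, whole units of pileup) and of the summed width (right, bp) in each of the 12 libraries. The 3 p20 dcKO libraries (8, 8 and 6) lie below the 3 p20 controls (14, 15 and 15) in signal, and adult control 2 (7) lies apart from the other adult controls (18).

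For tests, log2 width and log2 maximum signal were fitted with limma over 31540 p20 control 1 peaks of the autosomes and chromosome X that had a value in at least 2 libraries of each group, and p-values were adjusted over all of them (Benjamini-Hochberg, threshold 0.05). All 9129 members passed this requirement, since the rule asks for more, and they are part of those 31540 rows. Presence was used to choose members and signal bears on presence, so counts of members are read only against the percentage of all fitted peaks. In simulated data on these 31540 rows, the adult comparison recovered 0% of 2-fold and 11% of 4-fold changes of maximum signal, and 0% of both for width. A member without a call is thus not shown to be equal between groups.

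In p20 dcKO oocytes the core peaks were lower. Maximum signal fell at 1290 members (14.1%) against 8.76% of all fitted peaks, and rose at 5 members (0.0548%) against 0.0380%. The median log2 change was -0.97 over members and -0.78 over all fitted peaks, and 94.2% of members had a value below 0 against 86.7% of all. Calls increased with the width in p20 control 1, which the rule used, in members and in all fitted peaks alike: 5.44% of members under 1000 bp were called (2.31% of all fitted peaks of that width), 8.63% of those of 1000 to 2000 bp (5.78%), 14.6% of those of 2000 to 3000 bp (13.3%) and 30.3% of those of 3000 to 5000 bp (31.3%). With each library centred on its median over all fitted rows, which removes the shift common to all peaks, 174 members were called: 161 lower (1.76%, against 1.53% of all fitted peaks) and 13 higher (0.142%, against 0.127%), which is near the background. The centred median log2 change was -0.20 over members and -0.03 over all, with 64.7% of members below 0. Adult control 2 is in neither group here, but leaving it out cut the fitted rows to 20685 and changed the shared estimate of spread. Then 3220 members were called, 3207 lower (35.1%, against 27.3% of all fitted peaks) and 13 higher (0.142%, against 0.0919%). Without p20 control 2, dcKO 3 or p20 control 3 the count was 554 (6.07%, against 4.58% of all fitted peaks), 659 (7.22%, against 5.68%) or 746 (8.17%, against 5.91%). Centred and without adult control 2, 342 were lower (3.75%, against 4.38%) and 47 higher (0.515%, against 0.546%). With only the 10149 peaks of all 12 lists fitted, which adds wide and chromosome X peaks to the members, the order turned. Then 1894 members were lower (20.7%, against 24.6%) and 6 higher (0.0657%, against 0.0591%).

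In adult Dis3 cKO oocytes the direction was the same, with fewer calls in the main fit. With each library centred the order turned, with 274 members called in adults and 174 at p20. Maximum signal fell at 664 members (7.27%) against 5.81% of all fitted peaks and rose at 5 (0.0548%) against 0.0539%. These shares are near the background. The median log2 change was -0.50 over members and -0.48 over all. Calls again increased with width, from 2.0% of members under 1000 bp to 18.9% of those of 3000 to 5000 bp, as they did over all fitted peaks (1.91% to 21.4%). Without adult control 2 the number called was 2474, with 2462 lower (27%, against 24.0% of all fitted peaks) and 12 higher (0.131%, against 0.116%), and the median log2 change was -0.97 over members and over all. With centring it was 274, with 251 lower (2.75%, against 2.49%) and 23 higher (0.252%, against 0.225%). With centring and without adult control 2 it was 131, with 74 lower (0.811%, against 1.33%), 57 higher (0.624%, against 0.537%) and a member median of 0.03. When only the 10149 peaks of all 12 lists were fitted, members were called lower less often than all fitted peaks. In that fit 782 members (8.57%) were lower, against 1213 of the 10149 peaks, and 6 members were higher (0.0657%, against 0.0591%). Of the adult calls 74.6%, and of the p20 calls 38.5%, were the same 499 members (5.47% of members). Over all fitted peaks 1270 were called in both (4.03%), which is 68.6% of the adult and 45.7% of the p20 calls. All 499 had the same direction in both, which is nearly given by the few calls in the higher direction. These comparisons share no library but share 1 estimate of spread per peak.

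Width was called at far fewer members. In p20 dcKO, 50 members (0.548%) were narrower against 0.831% of all fitted peaks and 2 (0.0219%) wider against 0.0190%, with a median log2 change of -0.60 over members and -0.40 over all. Among the adults, 20 members (0.219%) were narrower in Dis3 cKO against 0.536% of all fitted peaks and 8 (0.0876%) wider against 0.0571%, with a median of 0.22 over members and 0.18 over all. Before centring, the medians of width and signal had the same sign at p20 and opposite signs in adults. With each library centred, the adult medians of members were both near 0, with 50% of members below 0 for width and a median of -0.04 for signal, and 141 members were narrower (1.54%, against 1.67% of all fitted peaks) and 15 wider (0.164%, against 0.108%). At p20 the centred width median was -0.21 over members, with 16 narrower (0.175%, against 0.333%) and 7 wider (0.0767%, against 0.0476%). Of the width calls, 45 at p20 (86.5%) and 19 in adults (67.9%) were also called for maximum signal, against 92.5% and 89.8% of the width calls over all fitted peaks. Leaving out p20 control 2 or 3 reduced the p20 count from 52 to 1 or 5 (calls over all fitted peaks from 268 to 22 or 40), and leaving out dcKO 3 reduced it to 13 (78 over all). Without p20 control 1 or adult control 2 it was 134 or 242 (393 or 722 over all). The adult count of 28 (187 over all) became 5 or 8 without Dis3 cKO 2 or 3 (52 or 69 over all), 14 without adult control 2 (60) and 61 without adult control 1 (260).

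Between adult and p20 control oocytes no member was called by limma after adjustment, for maximum signal or width, and 0% of all fitted peaks were. At an unadjusted p under 0.05, width was lower in adults at 1371 members (15%) against 9.38% of all fitted peaks and higher at 17 (0.186%) against 0.720%. Maximum signal was lower in adults at 248 members (2.72%) against 2.41% and higher at 71 (0.778%) against 2.34%. The median log2 difference of signal was -0.17 over members (-0.06 over all) and became 0.24 without adult control 2 (0.31 over all). It was -0.14 with centring and -0.10 with centring and without that library. The median log2 difference of width was -0.59 over members and -0.41 over all, and 84.6% of members had a value below 0 against 72.8% of all. With each library centred, these medians became -0.11 and 0.06, with 57.1% of members below 0, and width was lower at an unadjusted p under 0.05 at 361 members (3.95%, against 2.43% of all) and higher at 140 (1.53%, against 3.37%). Centred and without adult control 2, 50.1% of members were below 0. All fitted rows are peaks of a p20 control list, which may favour width in p20 controls, and this was not tested.

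**Figure D3:**
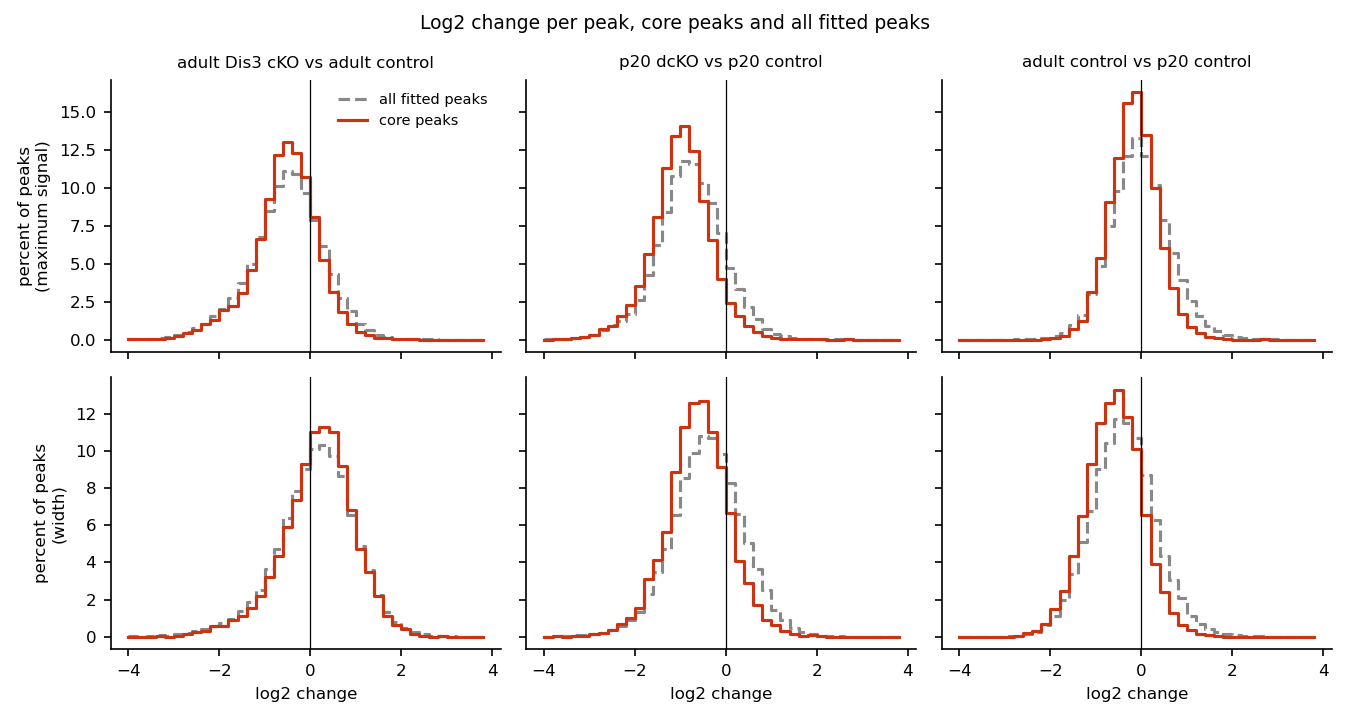
Percentage of peaks (vertical axis) by log2 change (horizontal axis) for maximum signal (top) and width (bottom) in each comparison, for the 9129 core peaks (red) and all 31540 fitted peaks (dashed grey). For maximum signal the core peaks of dcKO are shifted furthest below 0 (median -0.97), and for width only the adult Dis3 cKO panel has its core-peak median above 0 (0.22), which centring of the libraries removes.

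Core peaks held the starts of 10 listed developmental regulators. Of 81 such genes with an autosomal promoter window, 71 started in a peak of p20 control 1, 28 in a wide peak of every list and 10 (12.3%, against 3.47% of all 25748 genes of the promoter table) in a core peak: Evx2, Hand2, Hoxa9, Hoxa10, Hoxb4, Hoxd10, Lhx9, Neurog2, Pax8 and Zic4. Maximum signal fell at all 10 in p20 dcKO (median log2 change -2.80, range -3.05 to -1.61) and at 9 of 10 in adult Dis3 cKO (median -2.33, range -3.02 to -1.32). Over all fitted peaks it fell at 8.76% and 5.81%, with medians of -0.78 and -0.48. Most of these members were 3000 to 5000 bp wide, a range in which 31.3% and 21.4% of fitted peaks were called. The exception, the Zic4 member, had a log2 change of -1.32 in adults (adjusted p = 0.10, limma). Without adult control 2 the counts were again 10 and 9, beside 27.3% and 24.0% of all fitted peaks called lower. With each library centred they were 6 and 6, beside 1.53% and 2.49%, with medians of -2.04 and -1.87. Between adult and p20 controls none of the 10 was called, and their median difference was -0.05.

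Hox genes, which pattern the body axis, gave 4 of these members. At the Hoxa10 start (chr6:52234506-52238456) maximum signal was 40, 37 and 34 in p20 controls and 7, 7 and 14 in dcKO, and 39, 40 and 49 in adult controls and 11, 8 and 7 in Dis3 cKO. No knockout library reached a control library, and the log2 change was -2.07 ± 0.43 (SE, adjusted p = 0.00050) at p20 and -2.32 ± 0.43 (adjusted p = 0.00013) in adults, from limma. After centring the p20 change was -1.30 and did not pass (adjusted p = 0.14), while the adult one did (adjusted p = 0.011). At the Hoxb4 start (chr11:96317405-96321391, overlapping Hoxb3 as well) it was 31, 44 and 27 in p20 controls, 6, 4 and 5 in dcKO, 27, 41 and 28 in adult controls and 6, 13 and 10 in Dis3 cKO. The groups again did not overlap, with log2 changes of -2.75 ± 0.47 (adjusted p = 2.8e-05) and -1.77 ± 0.47 (adjusted p = 0.010) by limma, and after centring the adult change of -1.30 did not pass (adjusted p = 0.16), nor did it without Dis3 cKO 1 (adjusted p = 0.10). Width at Hoxb4 was 3987, 3738 and 4176 bp in p20 controls and 611, 2065 and 1005 bp in dcKO, and it missed the threshold (log2 -1.87, adjusted p = 0.28, limma). In adult control 2 the Hoxb4 member lay in a merged peak of 49515 bp, and the Hoxa9 and Hoxa10 members shared 1 peak of 47406 bp.

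The Hoxd10 member (chr2:74690807-74695357) was the only one of the 10 called for both measures in both knockout comparisons. Its maximum signal was 41, 47 and 33 in p20 controls against 7, 4 and 4 in dcKO, and 41, 29 and 48 in adult controls against 6, 8 and 4 in Dis3 cKO. Its width was 4551, 7703 and 3451 bp in p20 controls against 405, 798 and 913 bp, and 6822, 4786 and 3608 bp in adult controls against 848, 693 and 1262 bp. Both measures were without overlap between genotypes at either stage. For width the log2 change was -2.89 ± 0.55 at p20 (adjusted p = 0.012) and -2.44 ± 0.55 in adults (adjusted p = 0.040), by limma. The adult width call was lost with the replicate number as a block (adjusted p = 0.055) and without adult control 1 or 2, p20 control 3 or any 1 of the Dis3 cKO libraries (adjusted p = 0.054 to 0.15), and the p20 one without p20 control 2 (adjusted p = 0.12). The Evx2 member (chr2:74655948-74659860), at the end of the same HoxD cluster, had maximum signals of 67, 51 and 47 in p20 controls and 6, 12 and 6 in dcKO. The Hoxa9 member (chr6:52223653-52228139) had 24, 53 and 40 in p20 controls and 6, 5 and 4 in dcKO, and its adult call did not pass after centring (adjusted p = 0.066).

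Members at other lineage regulators changed in the same direction. At Lhx9, a LIM homeobox gene of the forming gonad (chr1:138840937-138842979), maximum signal was 41, 55 and 44 in p20 controls and 7, 4 and 7 in dcKO, and 31, 35 and 40 in adult controls and 10, 3 and 4 in Dis3 cKO. At Pax8, a thyroid and kidney regulator (chr2:24473091-24477387), it was 42, 52 and 27 against 7, 6 and 12 at p20, and 54, 52 and 34 against 6, 12 and 10 in adults. At Hand2, a heart and limb regulator (chr8:57317031-57321646), it was 30, 35 and 26 against 15, 6 and 5 at p20, and 35, 29 and 24 against 7, 11 and 10 in adults. The groups did not overlap at any of these genes, and log2 changes ran from -1.66 (Hand2, adults) to -2.99 (Lhx9, p20). After centring, Pax8 and Hand2 no longer passed at p20 (adjusted p = 0.086 and 0.22, limma) and Hand2 did not in adults (adjusted p = 0.19). The adult Hand2 call was also lost without Dis3 cKO 1 (adjusted p = 0.11) or adult control 1 (adjusted p = 0.051).

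Of 21 listed genes known for maternal H3K27me3 imprinting, 11 started in a peak of p20 control 1. In a core peak were 2 (9.52%, against 3.47% of all genes of the promoter table): Otx2, a head homeobox gene, and Cd44, a hyaluronan receptor. The first Otx2 member (chr14:48659594-48663017) had a maximum signal of 32, 29 and 29 in p20 controls and 9, 7 and 8 in dcKO, and 45, 38 and 56 in adult controls and 12, 13 and 12 in Dis3 cKO. The second (chr14:48663445-48668105) had 20, 40 and 32 against 8, 3 and 6, and 28, 42 and 20 against 7, 7 and 10. Both members of Otx2 were lower without overlap at either stage. After centring, the first passed in adults (adjusted p = 0.041, limma) but not at p20 (log2 -1.15, adjusted p = 0.17), and the second passed neither in adults (adjusted p = 0.15) nor at p20 (adjusted p = 0.066). Without Dis3 cKO 1 the adult call of the second was lost (adjusted p = 0.051). The Cd44 member did not pass, with log2 changes of -1.62 at p20 (adjusted p = 0.074, limma) and -0.88 in adults (adjusted p = 0.51). No start of 20 Polycomb and demethylase genes, 19 housekeeping genes or 10 oocyte markers was in a core peak. With 3.47% of all genes starting in a core peak, 0 in lists this short is near the background and supports nothing. Of 12 granulosa and blood markers, the alpha-globin gene Hba-a1 started in a core peak. The log2 change of its member was -0.89 at p20 (adjusted p = 0.35, limma) and -0.22 in adults (adjusted p = 0.91).

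In adult Dis3 cKO the largest fall of maximum signal was in Sall1, a kidney zinc-finger factor (chr8:89039121-89042395), at 25, 61 and 83 in controls and 9, 2 and 2 in Dis3 cKO (log2 -3.93 ± 0.51, adjusted p = 1.8e-06, limma). The homeobox gene Nkx1-1 (chr5:33430038-33434044) held a member with 53, 51 and 50 in controls and 4, 4 and 5 in Dis3 cKO (log2 -3.57 ± 0.46, adjusted p = 1.4e-06). The 3 controls were nearly alike at Nkx1-1, adult control 2 included, while at Sall1 adult control 1 was well below the others, and the log2 change was -4.65 without Dis3 cKO 1.

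At p20 a member with 1 of the 3 largest falls was in Onecut3, a homeobox gene (chr10:80491892-80495155), at 37, 66 and 29 in controls and 3, 6 and 3 in dcKO (log2 -3.45 ± 0.48, adjusted p = 1.6e-06, limma). A 411-bp member in Gm36876 (chr11:109011643-109012053) is among the 3 largest falls of both comparisons, with 37, 64 and 72 against 6, 4 and 5 at p20 and 16, 297 and 51 against 3, 3 and 12 in adults. The genotypes did not overlap at Onecut3 or Gm36876, but at Gm36876 the width did not fall and adult control 2 was over all other values. The adult log2 change there was -3.71, and it was -2.58 without adult control 2, -4.69 without adult control 1 and -4.38 without Dis3 cKO 3.

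**Figure D4:**
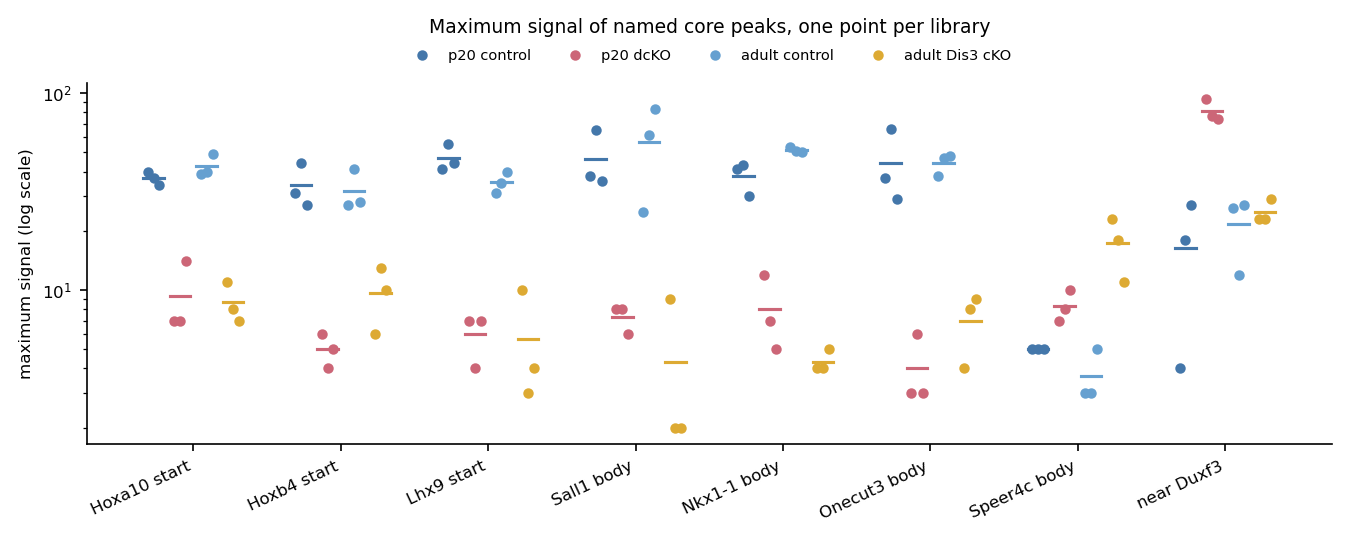
Maximum signal (whole units of pileup, log scale) of 8 named core peaks, with 1 point per library and a line at the mean of each group of 3. The 6 members on the left drop in both knockout groups, while the Speer4c member is highest in adult Dis3 cKO (23, 18 and 11) and the member near Duxf3 in p20 dcKO (93, 77 and 74).

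Among called members whose groups do not overlap, losses of width were largest at the following. In adult Dis3 cKO the member in Hdnr, near Hand2 (chr8:57338495-57342304), measured 4888, 30056 and 6251 bp in controls and 529, 996 and 1860 bp in knockouts (log2 -3.29 ± 0.61, adjusted p = 0.010, limma). The member at the start of Islr2, a neuronal membrane protein gene (chr9:58201767-58205584), measured 7587, 12010 and 6303 bp against 1419, 1426 and 327 bp (log2 -3.25 ± 0.60, adjusted p = 0.010). In En1, a midbrain homeobox gene (chr1:120603723-120607716), it measured 6138, 15167 and 5316 bp against 1736, 605 and 577 bp (log2 -3.22 ± 0.56, adjusted p = 0.0070). Adult control 2 had the greatest width at each of these, and the other controls still exceeded every knockout library. Without adult control 2 the calls at Hdnr (log2 -2.48, adjusted p = 0.066) and Islr2 (log2 -2.99, adjusted p = 0.057) were lost, and that at En1 was not. The call at Hdnr was also lost without Dis3 cKO 2 (adjusted p = 0.052) and that at Islr2 without Dis3 cKO 3 (log2 -2.55, adjusted p = 0.066).

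At p20 a member with 1 of the 3 largest losses of width by the same criterion lay 7233 bp from Hlx, a homeobox gene (chr1:184715002-184719910), with 4909, 19871 and 6813 bp in controls and 1236, 1105 and 292 bp in dcKO (log2 -3.57 ± 0.70, adjusted p = 0.014, limma). The smallest control exceeded the largest knockout value there, and the call was lost without p20 control 2 (log2 -2.97, adjusted p = 0.16), p20 control 3 (adjusted p = 0.054) or dcKO 3 (log2 -2.90, adjusted p = 0.099).

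Few members rose, as over all fitted peaks. Maximum signal was called higher at 5 in each knockout comparison (0.0548%), against 0.0539% of all fitted peaks in adults and 0.0380% at p20. These shares are small, and 4 of these 10 members overlap no gene. In adult Dis3 cKO, maximum signal rose at a member in Speer4c, one of a family of testis genes (chr5:15709951-15710952), from 3, 3 and 5 to 23, 18 and 11 (log2 2.22 ± 0.62, adjusted p = 0.017, limma). In 4930572O03Rik of the same cluster (chr5:15653980-15655704) it rose from 4, 3 and 4 to 23, 12 and 15 (log2 2.14 ± 0.61, adjusted p = 0.019), and width rose from 757, 901 and 553 bp to 10190, 7260 and 3863 bp. In Gm15319 (chr8:20357585-20359367) it rose from 2, 2 and 4 to 10, 9 and 17. The other 2 of the 5, at chr8:33151659-33152496 and chr7:51326533-51328816, overlap no gene, were named after their values were seen and rose from 2, 2 and 2 to 6, 5 and 9 and from 14, 10 and 9 to 56, 27 and 27. The call was lost at Speer4c without Dis3 cKO 1 or 2 (adjusted p = 0.11 and 0.064), at 4930572O03Rik without Dis3 cKO 1 or 3 (0.14 and 0.059) and at Gm15319 without Dis3 cKO 3 or adult control 1 (0.12 and 0.076). How the authors' mapping shared reads between near-identical copies is not given in the sources used here, so these values are uncertain.

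At p20, 3 of the 5 members that rose sat in 1 array, that of Duxf3, a double homeobox gene of early embryonic genome activation. The member at chr10:58222876-58223482, the named one, went from 4, 18 and 27 in controls to 93, 77 and 74 in dcKO (log2 2.70 ± 0.44, adjusted p = 1.3e-05, limma), and the log2 change was 1.88 without p20 control 1, the library at 4. Its neighbour at chr10:58223693-58225626 had the same knockout maxima, since both overlap the same dcKO peaks, against 21, 18 and 27 in controls. In Duxf3 itself (chr10:58230407-58233739) signal went from 12, 20 and 22 to 92, 71 and 42. In adults the first of these had 26, 12 and 27 in controls and 23, 23 and 29 in Dis3 cKO, with no call (log2 0.29, adjusted p = 0.82). Whether the effect differs between the p20 and adult comparisons was not tested. The remaining members that rose, at chr16:27078701-27079157 and chr12:3109891-3110087, have no gene within 50 kb and went from 2, 2 and 9 to 13, 15 and 17 and from 23, 21 and 38 to 134, 59 and 126. The chromosome 12 member measured 197 bp in p20 control 1 and is also among the short members with the highest median signal described below. After centring it did not pass (adjusted p = 0.10, limma), and it lost its call without p20 control 1 or 2 or dcKO 1 or 3 (adjusted p = 0.069 to 0.17). The chromosome 16 member lost its call without p20 control 1 or 2 or dcKO 2 or 3 (adjusted p = 0.071 to 0.14), and its log2 change of 2.17 was 2.90 without p20 control 3. The 2 other members of the Duxf3 array were named after their values were seen. How reads were shared between copies in this array is likewise not given, so the values of its members are uncertain.

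Width rose at 2 members at p20 (0.0219%, against 0.0190% of all fitted peaks) and at 8 in adult Dis3 cKO (0.0876%, against 0.0571%). Of the 8, 3 lay within chr1:88243530-88305887, in Mroh2a or between it, Hjurp and Trpm8, with log2 changes of 2.24, 2.59 and 2.63, and were named after their values were seen. A member in Tnnt3, a muscle troponin gene (chr7:142509614-142513436), went from 371, 381 and 957 bp to 3749, 3693 and 3687 bp (log2 2.85 ± 0.55, adjusted p = 0.016, limma), while its maximum signal did not pass (11, 3 and 7 against 13, 18 and 19). Its width call was lost without Dis3 cKO 2 or 3 (adjusted p = 0.077 and 0.062). A member in Cfap65, a sperm tail gene (chr1:74924867-74925968), went from 1109, 250 and 897 bp to 7682, 4504 and 3471 bp (log2 2.97 ± 0.67, adjusted p = 0.037), a call lost without adult control 2 (log2 2.31, adjusted p = 0.14) or any 1 of the Dis3 cKO libraries (adjusted p = 0.079 to 0.13). At p20 the 2 members that widened were beside Gm46898 in a zinc-finger gene cluster (chr4:147419721-147422103), from 2383, 1172 and 3530 bp to 7866, 9239 and 8461 bp, and at chr10:113920213-113920435, from 223, 163 and 307 bp to 667, 943 and 756 bp. The first lost its call without p20 control 2 or any 1 dcKO library (adjusted p = 0.065 to 0.20) and the second without any 1 of the 6 p20 libraries (adjusted p = 0.059 to 0.29). With peaks below the median total signal of their list left out, the value of the Cfap65 member turned to -1.47 and that of the first Duxf3-array member to -1.04.

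The member with the highest signal of all was at the start of Gm40237 (chr4:118546380-118548772). Its maximum was 1532, 1605 and 1437 in p20 controls and 442, 486 and 350 in dcKO (log2 -1.85 ± 0.17, adjusted p = 1.3e-11, limma). In adults it was 1349, 976 and 1119 in controls and 629, 648 and 586 in Dis3 cKO (log2 -0.87 ± 0.17, adjusted p = 0.00026). Signal fell in both comparisons without overlap, but after centring neither change passed (log2 -1.09 at p20, adjusted p = 0.82, and -0.41 in adults, adjusted p = 0.95). The adult call was also lost without adult control 1 or 3 (adjusted p = 0.14 and 0.074). Width stayed at 1679 to 2851 bp in all 12 libraries. The next 4 by median signal measured 190 to 370 bp in p20 control 1, and each was highest in adult control 2, for example 1152 there against 159 to 669 elsewhere at the member in Chl1 (chr6:103649055-103649287). No list of sequence with anomalous mapping was used here, and its part in such short, high members was not tested.

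RNA of the genes under core peaks was read in single oocytes sequenced after removal of ribosomal RNA, 8 libraries per group with 8492102 to 35429028 gene counts each. The p20 fit also held 8 libraries each of p20 Dis3 cKO and Exosc10 cKO oocytes, which share its estimate of spread and are in no comparison here. Of the 893 genes that start in a core peak, 716 (80.2%) matched the count tables. Genes under core peaks were mostly silent: 13.5% to 14.2% reached a mean of 1 CPM (gene counts scaled to an equal library total) in the 4 groups, against 10.0% to 13.5% of genes in the wide peaks of every list, 23.9% to 26.4% of genes in the other narrow peaks, 52.0% to 54.5% of genes in no p20 control 1 peak and 47.3% to 49.6% of all genes. In each group 40.4% to 47.3% of core-peak genes had a count of 0 in all 8 libraries. Another listed start outside core peaks was present for 158 of the 893 genes (17.7%), so RNA of those genes need not come from the marked start.

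The targeted genes followed the labels. Dis3 had a median of 15.3 CPM in adult controls and 1.88 in Dis3 cKO (log2 -3.13, adjusted p = 2.5e-06, edgeR), and 13.2 in p20 controls and 2.84 in dcKO (log2 -2.25, adjusted p = 5.9e-09). Exosc10 had 128 and 144 CPM in adults (adjusted p = 0.80) and 115 and 5.48 at p20 (log2 -4.01, adjusted p = 3.4e-10). Of 17 oocyte markers, 16 or 17 reached 1 CPM in each group. Of 13 granulosa and blood markers 6 did, with a summed level of 75.1 to 208 CPM over all libraries. These were Cyp19a1, Inha, Fshr, Nr5a2 and Kitl in each group, with Hsd3b1 in dcKO and Amh in the other groups. Whether this RNA came from granulosa cells was not tested. The globin genes Hbb-bs, Hbb-bt and Hba-a1 had counts of 0 throughout.

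At p20, 140 core-peak genes passed the filter on low counts, and RNA rose for 26 (18.6%, against 26.6% of all tested genes) and fell for 32 (22.9%, against 27.1%) in dcKO by edgeR's quasi-likelihood test. The median log2 change was -0.20 over these genes and -0.01 over all tested genes. Both shares were below those of all genes tested, and the genes that pass are those with detectable RNA in at least 1 group, not all members. The median was 0.00 for the 499 genes tested by edgeR without the filter and 0.15 for the same number with DESeq2.

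Genes that rose at p20 were diverse in role. Cdsn, a keratinocyte adhesion protein, was at 0 in 6 of 8 control libraries (highest 0.269 CPM) and at 3.97 to 21.3 CPM in dcKO (adjusted p = 7.3e-08, edgeR), and its core peak had the same median maximum of 7 in both p20 groups. Dab2ip, a Ras GTPase activator, had a median of 11.2 CPM in controls (4.88 to 41.2) and 83.6 in dcKO (23.1 to 123). Prokr2, a prokineticin receptor, had 1.49 CPM (0.290 to 2.10) and 5.88 (2.12 to 9.08). The ranges were apart for Cdsn and Prokr2 and overlapped for Dab2ip. Also among the 10 strongest were Hip1, Prune2, Olfm2, Cln3, Eps8l2, Nrros and Magi2, with log2 changes of 0.85 (Magi2) to 3.64 (Nrros). Olfm2 has a core peak whose median maximum was 25 in p20 controls and 4 in dcKO, and its median RNA was 0.492 CPM in controls and 5.62 in dcKO. Control medians were also low for Cdsn (0 CPM), Nrros (0.112) and Prune2 (0.340). These genes and Olfm2 needed other groups to pass the filter, so only a rise could be tested. Their rises are therefore not read as results about the peaks.

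The median peak maximum was lower in dcKO for all 10 named genes that fell at p20 and for 9 of the 10 that rose, beside 94.2% of all members with a log2 change below 0. Nlgn1, a synaptic adhesion gene, had a median of 68.5 CPM in controls (32.3 to 92.5) and 14.1 in dcKO (11.2 to 28.1; log2 -2.24 ± 0.26, adjusted p = 1.6e-08, edgeR), with a median peak maximum of 23 in controls and 8 in dcKO. Nmnat2, an NAD-synthesis enzyme, had 19.2 CPM (11.7 to 24.4) and 5.30 (3.79 to 9.46), with peak maxima of 37 and 7. Kcnh5, a potassium channel gene, had 10.1 CPM (7.87 to 12.2) and 3.39 (0.707 to 5.76), with peak maxima of 31 and 6. None of these 3 overlapped between groups. The others were Slc25a13, St6galnac3, Gpnmb, Col19a1, Ece1, Sox6 and Mlxipl, with log2 changes of -3.02 (Col19a1) to -0.75 (Mlxipl). Lower peak signal thus stood beside higher RNA at Olfm2, where only a rise could be tested, and lower RNA at Nlgn1. The RNA ranges overlapped at Olfm2 (0.102 to 1.26 CPM in controls and 0.610 to 11.7 in dcKO). Olfm2 has 3 listed starts and Nlgn1 has 2, with 1 of each in a core peak. RNA of these genes need not come from the marked start.

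Of the core-peak genes, 132 were tested in adult Dis3 cKO, and RNA rose for 12 (9.09%, against 15.7% of all tested genes) and fell for 17 (12.9%, against 12.4%) by edgeR. The median log2 change was -0.08 over these genes and 0.03 over all. Library titles carry a tag shared by several oocytes, and with counts summed per tag (2 sums per group) 0 core-peak genes of 235 were called by edgeR (32 at an unadjusted p under 0.05), as were 0 of 20190 genes in all, so the adult calls rest on single oocytes as replicates. Scaled to the ERCC spike-in counts, the median of all tested genes shifted to -0.52 and 46 core-peak genes were called (34.8%, against 44.6% of all tested genes), 4 of them higher. At p20 the sums per tag left 48 calls of 236 genes (20.3%, against 31.8%).

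Cplx1, a synaptic complexin, rose in adults from a median of 1.75 CPM (0.980 to 2.93) to 8.06 (4.53 to 21.1; log2 2.49 ± 0.34, adjusted p = 3.4e-05, edgeR). Prokr2 rose from 1.06 CPM (0.285 to 2.82) to 6.39 (3.8 to 9.58). Rapgef3, a cAMP-responsive exchange factor, fell from 16.0 CPM (8.23 to 18.8) to 3.64 (1.99 to 9.08; log2 -1.78 ± 0.30, adjusted p = 0.00022), and Astn1, a neuronal migration gene, from 5.39 (2.85 to 7.77) to 1.06 (0.366 to 2.33). Of these, only Rapgef3 overlapped between groups. The other rising genes were Cdsn, Eps8l2, Magi2, Rilpl1, Rarg, Cln3, Col19a1 and Slc43a1 (log2 0.99 to 4.05), and the other falling ones Osbpl5, Arhgef4, Shisa5, Frem2, St6galnac3, Adcyap1r1, Grm7 and Gpnmb (log2 -2.30 to -0.58). With a control median of 0.0436 CPM, Cdsn needed the knockout group to pass the filter, so only a rise could be tested there. Col19a1, a collagen gene, had a log2 change of 1.04 in adult Dis3 cKO and -3.02 in p20 dcKO, and this difference was not tested. The counting of strand is not given in the sources used here, so sense and antisense RNA cannot be told apart.

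RNA of the developmental regulators with a core peak was near 0 in most groups. Of the 10, Hoxa10 and Hoxb4 had enough counts to be tested at p20. Hoxa10 had a median of 0.157 CPM in p20 controls (0 to 1.26, with 2 of 8 at 0) and 1.81 in dcKO (0.153 to 3.37; log2 2.56, adjusted p = 0.0057, edgeR). Hoxb4 had 0.257 CPM (0.0581 to 0.761) and 1.67 (0.353 to 6.05; log2 2.65, adjusted p = 0.0031). Both were higher in dcKO, with overlapping ranges, at genes whose start peaks fell. With control medians this low, these genes passed the filter through other groups, so only a rise could be tested. The rise is therefore not read as a result about the peaks. In adults Hoxb4 was at 1.31 CPM in controls and 1.23 in Dis3 cKO (log2 0.46, adjusted p = 0.59). Neurog2, Pax8, Zic4 and Otx2 had a median of 0 CPM in all 4 groups.

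**Figure D5:**
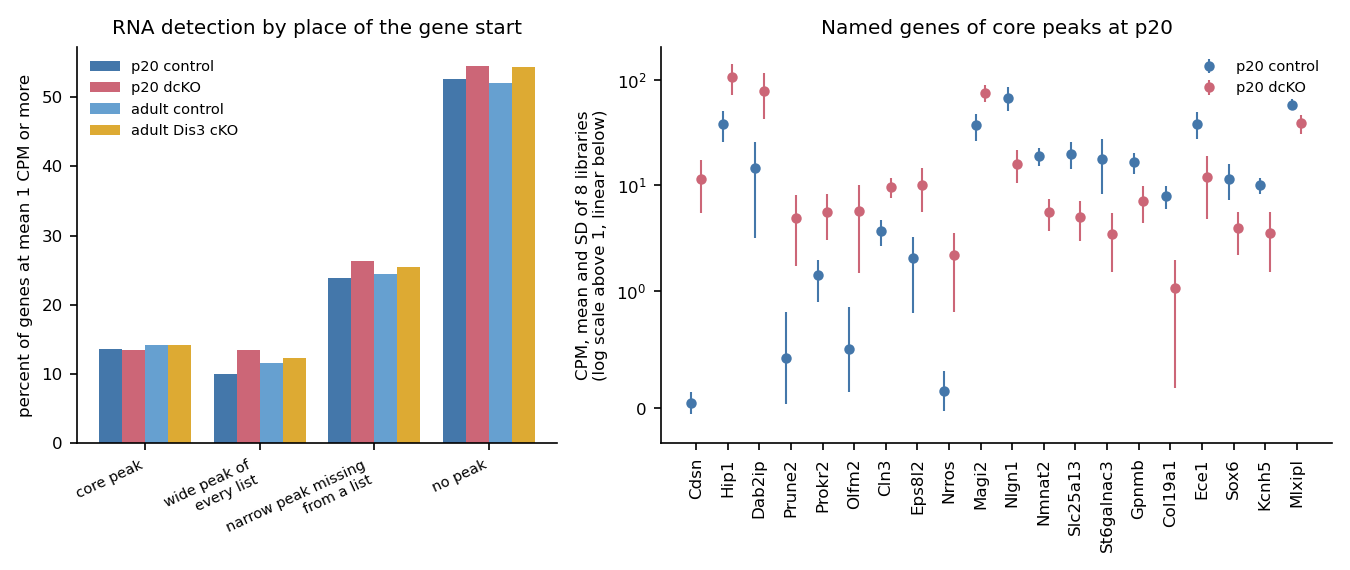
Left, percentage of genes with a mean of 1 CPM or more by where their start lies, in the 4 groups, with core-peak genes at 13.5% to 14.2% and genes in no peak at 52.0% to 54.5%. Right, mean and SD over 8 libraries of CPM (log scale above 1, linear below) of the 20 named core-peak genes at p20, rising ones first.

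RNA polymerase II (Pol II) peaks, called in 9 libraries of 3 of the 4 groups (no dcKO), met a minority of core peaks. Per list 1.01% to 7.01% of core peaks overlapped a Pol II peak by 1 bp or more, against 0.451% to 3.25% of the other narrow peaks and 1.78% to 15.5% of the wide peaks, and wider regions overlap more readily. The lowest share was in adult control 1, the shortest list (19697 peaks), and the highest in adult Dis3 cKO 3, the longest (122606 peaks). With Dis3 cKO at 4.36%, 1.48% and 7.01% and adult controls at 1.01%, 1.94% and 1.63%, the groups overlapped. No Pol II peak in any of the 9 lists met 81.0% of core peaks, 79.2% of core peaks with a gene start and 90.4% of the other narrow peaks. Of the Pol II peaks themselves, only 3.50% to 4.24% per list had a gene start within 1 kb. These lists thus seldom marked gene starts, and lack of a Pol II peak is not read as lack of polymerase.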

How the data were processed

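Per the labels' protocols, CUT&Tag used unfixed pooled oocytes. The deposited peak lists, 1 per library, hold a total and a maximum signal per peak set by the authors' peak caller, and the submitters' processing notes name cutadapt 2.5, FastQC 0.11.8, STAR 2.7.2a, SAMtools 1.9, HTSeq 0.9.1, R 3.5.1, DESeq2 1.24.0, SEACR and the build mm10 with no role for each. The series' design text states that an equal number of reads was drawn from each library and that duplicates were kept, so depth is equal in name and no interval was made. The deposited RNA files hold the authors' whole-number counts per gene. Core peaks were found from the lists, and a list with no overlapping peak gave a missing value. Log2 values computed from the deposited signal and widths were fitted for all 12 libraries with limma 3.58.1 (trend in the prior variance, 4 groups, no block) in R 4.3.3. Counts were tested with edgeR 4.0.16 (quasi-likelihood, TMM, filterByExpr, the 4 p20 groups, Dis3 cKO and Exosc10 cKO included, in 1 fit), and DESeq2 1.42.0 was an alternative. Tests are 2-sided, and the limma and edgeR steps were tested on simulated data. Nothing in the labels says that CUT&Tag replicates came from separate animals, so p-values measure the spread between these libraries, which may be technical.

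Named members are the 3 largest increases and decreases per comparison and measure among called members whose groups do not overlap, the 5 with the highest median signal, and up to 10 holding a start of a listed gene. Some members that this rule names are not reported here. Named RNA genes are up to 10 per direction with the smallest adjusted p. The members and lists were chosen with earlier results of these data known. Gene starts and promoter sequences are RefSeq's (GRCm38.p6). Sequence around peak maxima was not analysed here. Same-numbered H3K27me3 libraries deviated from their group means with correlations of -0.04 to 0.10, and same-numbered p20 RNA libraries with -0.31 to 0.16, so numbers were not taken to pair samples. Alternatives changed the scale, filters, overlap, width limit, variance model, measures, replicate unit and libraries, and 2 of them (both with adult control 2 left out) were chosen after seeing the data.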

Additional observations from a re-analysis of the deposited data

Results flagged for a closer look

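Single RNA libraries stood apart in 11 of 80 groups of 8 oocytes examined for the named core-peak genes, by the gap between the extreme value and its neighbour relative to the range of the group. For normally distributed values chance gives about 1 in 20 groups. The values here were CPM without a log scale, of genes chosen for their calls, so the count is not read as an excess. In adult controls the values that stood apart were 0.459 CPM of Cdsn (next value 0.144), 3.26 of Frem2 (next 1.72) and 22.8 of Gpnmb (next 15.5). In adult Dis3 cKO they were 15.6 of Eps8l2 (next 9.20), 11.8 of Rilpl1 (next 6.51) and 21.1 of Cln3 (next 11.1). In p20 controls they were 0.269 of Cdsn (next 0.102), 41.2 of Dab2ip (next 16.7) and a low 0.290 of Prokr2 (next 1.32). In p20 dcKO they were 20.3 of Eps8l2 (next 11.8) and 9.46 of Nmnat2 (next 6.36). Groups of 3 CUT&Tag libraries were not examined in this way.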

How the results depend on the processing

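Counts of called members moved with the scale and the choice of libraries, and the causes were not tested. In parentheses are the shares of members and then of all fitted peaks. For maximum signal in adult Dis3 cKO, 669 (7.33%, 5.87%) became 274 (3.00%, 2.71%) with libraries centred on their median, 131 (1.43%, 1.87%) centred and without adult control 2, 2498 (27.4%, 26.0%) without adult control 2 and p20 control 1, 418 (10.4%, 10.3%) with peaks at or above the median total signal of their list, 144 (2.99%, 5.87%) with a limit of 2 kb and 22 (4.10%, 3.76%) with 50% of the peak covered in every list. For maximum signal in dcKO, 1295 (14.2%, 8.80%) became in the same order 174 (1.91%, 1.65%), 389 (4.26%, 4.93%), 2759 (30.2%, 26.8%), 1030 (25.5%, 17.6%), 376 (7.81%, 8.80%) and 82 (15.3%, 7.38%), and 733 (8.03%, 5.69%) without a variance trend. For width in adults, 28 (0.307%, 0.593%) became 156 (1.71%, 1.78%), 50 (0.548%, 1.37%), 10 (0.110%, 0.220%), 18 (0.446%, 1.17%), 6 (0.125%, 0.593%) and 0 (0%, 0%), with 1 (0.0110%, 0.0349%) without a trend and 88 (0.964%, 2.32%) with only peaks of all 12 lists fitted. For width in dcKO, 52 (0.570%, 0.850%) became 23 (0.252%, 0.380%) centred, 473 (5.18%, 5.88%) without both libraries, 2 (0.0415%, 0.850%) at 2 kb, 0 (0%, 0%) at 50%, 3 (0.0329%, 0.0444%) without a trend, 206 (2.26%, 4.45%) with only peaks of all lists and 150 (1.64%, 1.61%) as covered bases. Width between controls (0) gave 8 (0.0876%, 0.0698%) as covered bases and 24 (0.263%, 0.193%) without both libraries. Fewer members were eligible at 2 kb (4816), at 50% (537) and above the median total signal (4038). The 2 kb limit was applied to the members only, so the second share beside it covers fitted peaks of every width. For maximum signal, fitted peaks under 1000 bp and of 1000 to 2000 bp were called at 1.91% and 3.01% in adults. At p20 they were called at 2.31% and 5.78%. Of the 52 members called for width in dcKO, 40 were of 3000 to 5000 bp.

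Leaving out 1 library at a time gave 487 to 2474 and 554 to 3220 members for maximum signal in adults and at p20 (4.75% to 24.1% and 4.58% to 27.4% of all fitted peaks), 0 to 2 between controls, and 5 to 61, 1 to 242 and 0 to 0 for width (0.198% to 1.24% and 0.0750% to 3.49% of all in adults and at p20). Medians over members changed sign in adults when centred and without adult control 2 (-0.06 for width, 0.03 for signal), and between controls for signal without adult control 2 (0.24, or 0.21 without p20 control 1 too; leaving out 1 library at a time gave -0.38 to 0.24). The widening at Cfap65 turned to -1.47 and the rise near Duxf3 to -1.04 with weak peaks left out, and the p20 RNA median to 0.15 with DESeq2, which ran without the filter. RNA calls in adults (29 of 132, 22.0%, against 28.1% of all tested genes) were 45 of 488 with DESeq2 (9.22%, against 16.4%), 46 scaled to ERCC and 0 summed per tag, and at p20 (58 of 140, 41.4%, against 53.7%) 117 of 499 without a filter (23.4%, against 29.5%). With the number as a replicate block, 660 (7.23%, 5.83%), 1210 (13.3%, 8.17%) and 0 members were called for signal and 27 (0.296%, 0.587%), 46 (0.504%, 0.799%) and 0 for width in adults, at p20 and between controls, and 56 genes for RNA at p20 (40.0%, against 53.0% of all tested genes). Of 8 RNA numbers, 1 library correlated best with its own. The adult RNA titles share no numbers between genotypes.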
